A study of Mus musculus with 6 samples.

Results

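The comparison set the kidney clamped for 60 min against the kidney clamped for 45 min, both 1 day after the clamp was released, and so took 2 of the 6 arrays of the series, chosen by clamp time and day as labelled. Male FVB/N mice aged 6 to 8 weeks and weighing 22 to 26 g had the blood supply of 1 kidney clamped, and the kidney was taken at day 1 or day 3. The series had 1 array for each of 0, 45 and 60 min at each day and was filed under tumour necrosis factor blockade after injury, though its labels name no drug or allele on these arrays. The labels do not say whether an array held 1 animal or a pool. With 1 array a side there was no test, so differences were called by size alone, at 2-fold or more (1 on the log2 scale of intensity + 16), and where a count of a group is given, "higher" and "lower" mean past 2-fold.

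Clamping stops the supply of oxygen to a kidney, and its release lets blood return to tubule cells that have run short of ATP. The proximal tubule, which does most of the reabsorbing and depends on mitochondria, is the segment known to suffer most. Surviving tubule cells are known to lose transporters, to make injury proteins such as Havcr1 (KIM-1) and Lcn2 (NGAL), to release cytokines and to divide again, and longer ischaemia is known to give worse injury.

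At day 1, 11 of 21 tubular injury markers and 6 of 31 immediate early genes were at least 2-fold higher after the longer clamp, as were the chemokine Cxcl1 and the fibrinogen chains Fgb and Fga, with most transport and metabolic genes of the nephron a little below their 45 min level. Of 12735 genes kept, 253 (1.99%) lay past 2-fold: 128 (1.01%) were higher and 125 (0.982%) lower at 60 min, and the median difference over all genes was 0.0056. The 2 unclamped kidneys, which differed in day, had 218 genes (1.71%) higher and 175 (1.37%) lower at day 3 than at day 1, in all 393 (3.09%), so more genes lay past 2-fold between them than between the 2 clamp times. The standard deviation of the difference over genes was 0.365 for the clamp times and 0.418 for the unclamped pair. Single genes past 2-fold were thus less common than between 2 unclamped kidneys. The results are given by gene group, beside these shares and the day 3 arrays. The unclamped pair was not summarised by gene group, so group medians and counts above or below 0 have no such yardstick. The groups were also chosen with earlier results of these data known.

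**Figure D1:**
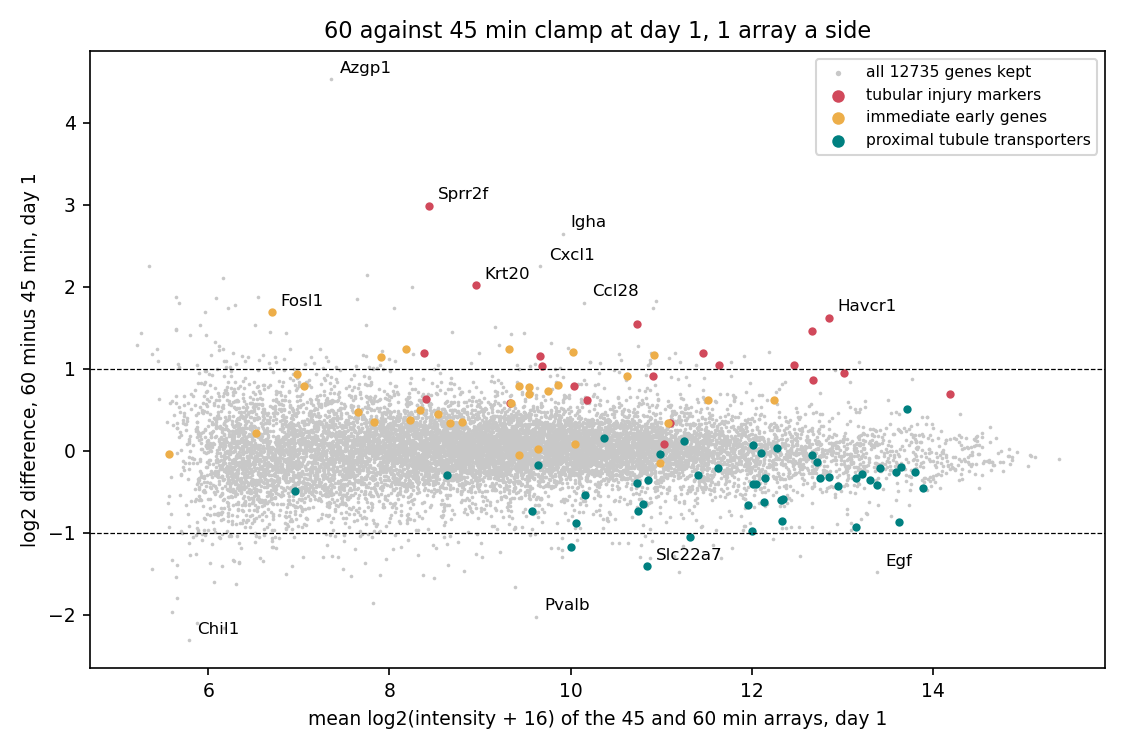
Log2 difference of 60 minus 45 min at day 1 (vertical) against the mean log2(intensity + 16) of the same 2 arrays (horizontal), 1 point a gene for 12735 genes, with dashed lines at 2-fold. Tubular injury markers (red) and most immediate early genes (yellow) lie above 0, while most proximal tubule transporters (teal) lie below it, and Azgp1 at 4.54 stands above all other genes.

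The arrays read as kidney. Among 6 tubule markers, Lrp2 (megalin) read between 9491 and 17704 and Aqp2 between 1717 and 3480 on the 6 arrays, and Slc34a1, Slc12a1, Umod and Slc12a3 were bright on all arrays except Slc12a3 at day 3 after 60 min, which read 888. The podocyte gene Nphs1 read 136 to 203, and the B cell gene Cd79a (at most 11.1), the adrenal gene Cyp11a1 (at most 33.6) and the liver gene Apoa1 (at most 51.3) were below the filter on low values. Other markers of neighbouring tissue were kept: the fat genes Adipoq read 974 to 1772 and Ucp1 153 to 498, the adrenal gene Star 27.0 to 103 and the liver gene Alb 16.2 to 230. Adipoq read 1619 at 45 min and 974 at 60 min at day 1, and Ucp1 read 301 and 394. Of the muscle genes on the same 2 arrays, Ckm read 30.7 and 94.5 (a difference of 1.24), Acta1 110 and 58.2, and Myh11 271 and 221. The red cell gene Alas2 read 262 and 142, and red cell genes had a median difference of -0.68 over 4 kept, or -0.44 with probe sets averaged. Among the 4 was Slc4a1 (-0.82), which the collecting duct list also holds. Median intensity was 81.4 to 95.3. The log2 ratio of 3' to 5' actin probe sets, which is higher where RNA is degraded, was 1.10 on the 45 min and 1.08 on the 60 min array of day 1, and that of Gapdh was -0.22 and -0.20. RNA came from whole kidney, in which fewer cells of a type and less RNA per cell cannot be told apart.

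Sequences of 5 promoters are shown because, among the members past 2-fold of 3 lists described below (NF-kB targets, the integrated stress response and targets of the YAP and TEAD regulators), they are the ones that held a motif of their list. Each is the 250 bases before the start in the RefSeq table for GRCm38.p6, 5' to 3' on the gene's strand, with matches in capitals. The letters searched, on both strands, were GGGA, any base and TTTCC for NF-kB, TGATGNAA for the C/EBP-ATF response element that ATF4 can bind, and GGAATG for TEAD.
Cxcl1, chr5:90890995-90891244, + strand: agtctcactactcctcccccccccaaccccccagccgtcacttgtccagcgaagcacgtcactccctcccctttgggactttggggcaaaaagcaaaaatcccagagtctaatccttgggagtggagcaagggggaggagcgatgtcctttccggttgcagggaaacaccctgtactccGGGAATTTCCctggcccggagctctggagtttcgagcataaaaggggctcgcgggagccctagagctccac
Cxcl2, chr5:90903649-90903898, + strand: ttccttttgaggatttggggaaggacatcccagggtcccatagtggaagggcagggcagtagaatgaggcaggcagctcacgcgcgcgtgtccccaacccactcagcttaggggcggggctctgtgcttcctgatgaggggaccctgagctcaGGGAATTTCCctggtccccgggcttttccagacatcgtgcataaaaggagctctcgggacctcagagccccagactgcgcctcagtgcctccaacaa
Asns, chr6:7693210-7693459, - strand: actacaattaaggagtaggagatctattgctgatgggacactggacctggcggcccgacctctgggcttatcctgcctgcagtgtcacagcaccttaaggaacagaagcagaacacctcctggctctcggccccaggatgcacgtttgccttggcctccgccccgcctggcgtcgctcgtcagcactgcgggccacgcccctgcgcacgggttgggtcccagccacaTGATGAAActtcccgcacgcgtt
Ccn1, chr3:145649986-145650235, - strand: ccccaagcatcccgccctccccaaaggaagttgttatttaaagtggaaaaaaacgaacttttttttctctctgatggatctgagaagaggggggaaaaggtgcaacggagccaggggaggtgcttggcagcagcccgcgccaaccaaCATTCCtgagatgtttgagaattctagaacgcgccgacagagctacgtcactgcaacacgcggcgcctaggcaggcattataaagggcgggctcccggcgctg
Ankrd1, chr19:36119845-36120094, - strand: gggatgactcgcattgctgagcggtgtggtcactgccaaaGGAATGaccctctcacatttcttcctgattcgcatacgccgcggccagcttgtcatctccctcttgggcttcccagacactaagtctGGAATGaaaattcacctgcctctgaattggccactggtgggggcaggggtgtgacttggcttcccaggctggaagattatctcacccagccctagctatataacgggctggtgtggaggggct

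The neighbouring chemokine genes Cxcl1 and Cxcl2 carried the same NF-kB match, beginning 71 and 97 bases before the start. Of all 32851 promoters of that length, 0.356% held this motif, 3.45% held the response element and 12.6% held the TEAD letters. Among NF-kB targets that were higher, Bcl3 and Socs3 had no match, and among genes of the stress response Asns had one and Trib3 none. In Ccn1 the TEAD letters stood on the opposite strand and Ankrd1 held them at 2 places, while Nuak2 had no promoter entry. No AP-1 (TGANTCA) or CArG box match was found in the 4 higher immediate early genes with a promoter entry (Atf3, Jun, Klf6 and Maff). Maff held the CRE letters TGACGTCA in 1 of its promoter entries and not in the others. The heat shock protein gene Hspb1 held the heat shock letters GAANNTTC at 2 places, and 6.69% of all promoters held them. A match describes these letters and is not a site or a cause.

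Tubular injury markers were the list with the largest number of members past 2-fold. All 21 of those kept lay above 0, with a median of 1.04. Of these, 11 (52.4%) were higher by 2-fold, against 1.01% of all genes, with none lower. The list was chosen with earlier results of these data known, so a share above that of all genes is no independent support. Havcr1, a receptor that proximal tubule cells put out after injury, read 599 at 0 min, 4216 at 45 min and 13011 at 60 min. Lcn2, an iron-binding protein released by injured distal tubule, read 1273, 3911 and 10746. Both stepped up with each clamp time, and their 60 minus 45 min differences were 1.62 and 1.45. The 2 unclamped kidneys themselves lay apart for both, at 599 at day 1 and 1242 at day 3 for Havcr1, and at 1273 and 640 for Lcn2.

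For some of the markers most of the distance from the unclamped kidney lay between 45 and 60 min. Sprr2f, a protein of the cornified envelope of stratified epithelia, read 50.2, 107 and 961, a 60 minus 45 min difference of 2.99. Its Sprr2 relatives are so alike that 1 probe set may not separate them. Krt20, an intermediate filament protein that adult tubules make after injury, read 66.7, 231 and 988, a difference of 2.02. Tnfrsf12a, the receptor for the TNF relative TWEAK, did not stand above the unclamped kidney at 45 min: it read 1086, 984 and 2894, a difference of 1.54. The ferroxidase ceruloplasmin had the same order, since Cp read 2722, 2218 and 4576. The remaining members past 2-fold were the urokinase receptor Plaur (1.20), the membrane-binding annexins Anxa3 (1.19) and Anxa2 (1.05), the adhesion molecule Vcam1 (1.16) and the cell cycle inhibitor Cdkn1a (1.04). Keratins of simple epithelium came just under 2-fold, at 0.95 for Krt8 and 0.91 for Krt18.

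**Figure D2:**
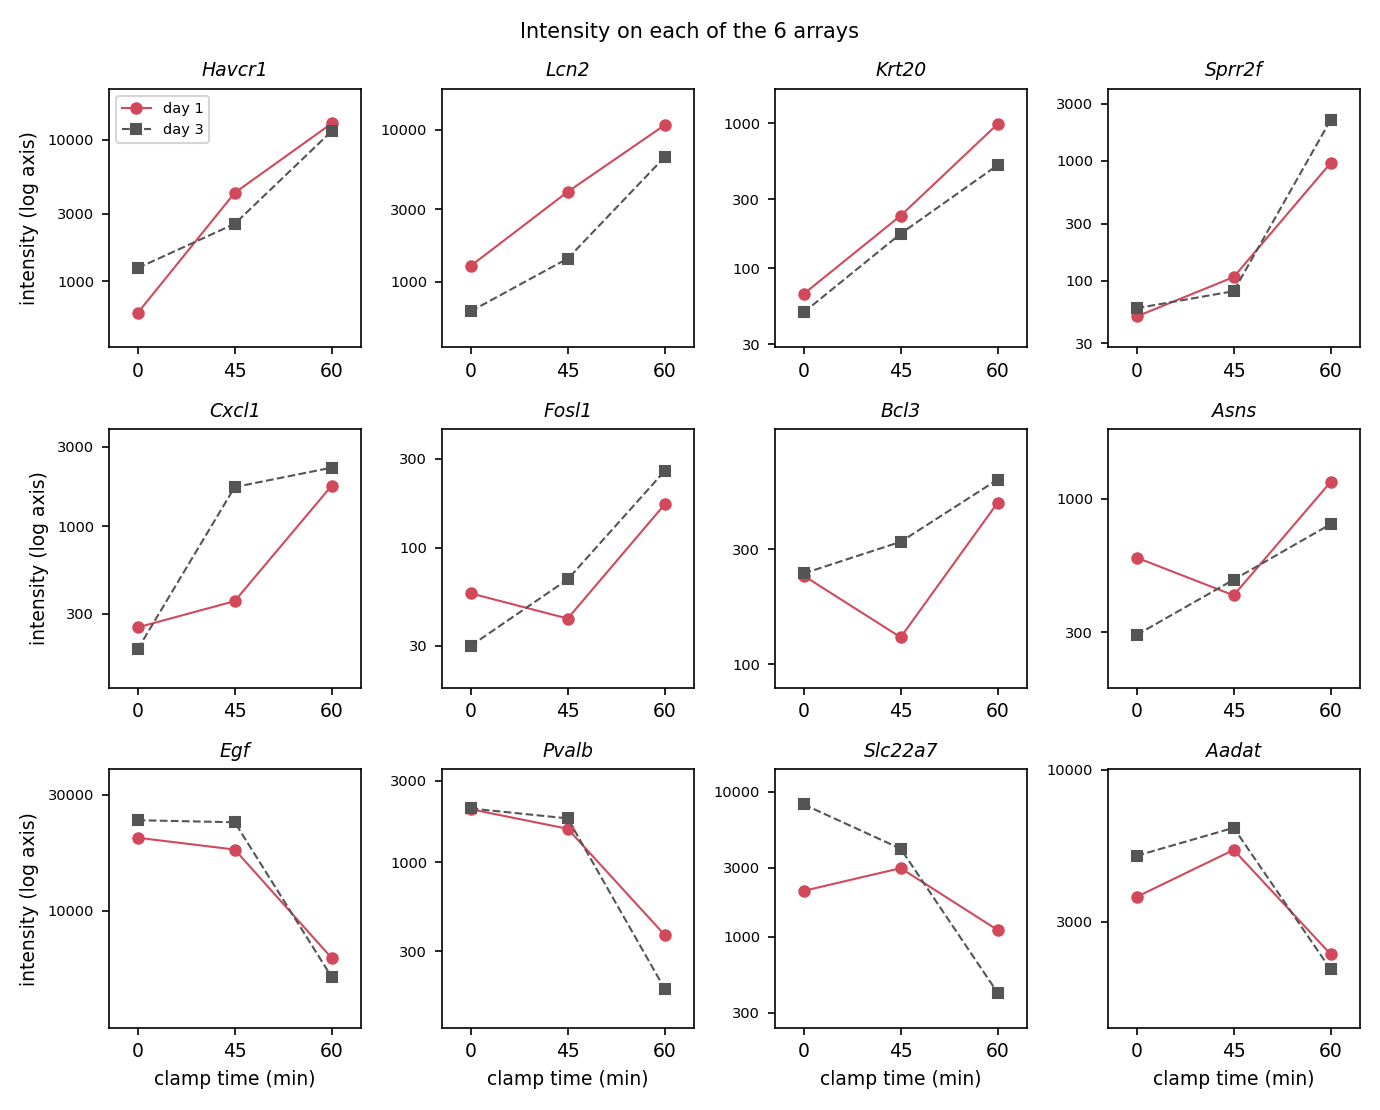
Intensity on each of the 6 arrays (log axis, each panel with its own range) by clamp time in min, for day 1 (red circles, solid) and day 3 (grey squares, dashed), where each point is 1 array and lines only join the arrays of a day. Havcr1, Lcn2, Krt20 and Sprr2f were highest at 60 min on both days, Cxcl1 at day 1 separated 60 min (1759) from 45 min (356), and Egf and Pvalb were lowest at 60 min on both days.

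Tnf itself read 9.49, 4.43 and 9.41 at day 1, under the filter on low values, so no difference was taken. Of 24 other genes of its pathway kept, 2 (8.33%) were higher, none was lower and 19 lay above 0, with a median of 0.24. Those past 2-fold were Rhbdf2, which carries the TNF-releasing protease ADAM17 to the cell surface, at 1.54 (37.6 at 45 min, 140 at 60 min), and Mlkl, the pore-forming protein of necroptosis, at 1.03 (123 and 268). The kinase that activates MLKL came close, with Ripk3 at 0.94. The receptors were short of 2-fold: Tnfrsf1a read 1169 and 1667, a difference of 0.51, and Tnfrsf1b read 163 and 259, a difference of 0.62.

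Among NF-kB target genes 4 of 26 (15.4%) were higher and none lower, with a median of 0.42. Cxcl1, a chemokine that draws neutrophils, read 248 at 0 min, 356 at 45 min and 1759 at 60 min, a difference of 2.25 between the clamp times. Its neighbour Cxcl2 read 46.0, 128 and 304, a difference of 1.15. Bcl3, a nuclear partner of NF-kB, read 233, 129 and 468 and so was lower at 45 min than in the unclamped kidney and highest at 60 min (1.74). Socs3, which curbs cytokine signalling and is also counted below under gp130, read 291, 634 and 1536, a difference of 1.26. Targets that curb NF-kB in turn were short of 2-fold, with the inhibitor Nfkbia at 0.31 and the ubiquitin-editing enzyme Tnfaip3 at 0.48. Over all 26 chemokines and chemokine receptors kept, 4 (15.4%) were higher, against 1.01% of all genes. These include Cxcl1 and Cxcl2, already counted above, and Ccl28, which read 8240 at 0 min, 590 at 45 min and 2105 at 60 min. Of the 26, 10 lay below 0, among them Cxcl12 at -0.92, while Ccl2, which draws monocytes, read 317 and 336, a difference of 0.08.

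Immediate early genes, transcription factors and regulators that cells switch on within minutes of a stimulus, lay above 0 in 28 of 31 cases, with a median of 0.61. Of these 6 (19.4%) were higher and none lower. Fosl1, a partner of Jun in AP-1, read 57.3 at 0 min, 42.0 at 45 min and 171 at 60 min, the largest difference of the group at 1.69. Atf3, a stress-induced factor, read 104, 173 and 431 (1.24). The growth regulator Myc read 423, 401 and 967 (1.24) and Jun read 724, 670 and 1568 (1.21). At 45 min Myc and Jun were thus near the unclamped kidney of day 1, and all 3 genes stood above it at 60 min. Fosl1 was lower at 45 min than in that kidney, but dim, and its unclamped kidneys read 57.3 at day 1 and 30.0 at day 3. Klf6 (1.16) and Maff (1.14) completed the 6, and Fos (0.45) and Junb (0.34) were short of 2-fold.

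Of 22 YAP and TEAD target genes, 3 (13.6%) were higher and none lower, with a median of 0.30. Ccn1, a secreted matrix-associated signalling protein, read 1100 at 0 min, 1027 at 45 min and 3676 at 60 min, a difference of 1.82. Nuak2, a kinase of the AMPK family, read 5904, 2568 and 5750 (1.16), so its 60 min level was near that of the unclamped kidney and its 45 min level stood apart. Ankrd1 read 71.0, 243 and 519 (1.05), in order of clamp time.

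Genes downstream of gp130, the receptor chain shared by interleukin 6 and its relatives, and acute phase proteins gave 5 higher of 22 (22.7%) and none lower, with a median of 0.54. Chains of fibrinogen, the clotting protein that injured kidney is known to make, were higher in 2 of 3 cases: Fgb read 294 at 0 min, 1088 at 45 min and 2656 at 60 min (1.28), Fga read 2789, 3067 and 7062 (1.20), and Fgg was just short at 0.98. Saa1, an acute phase apolipoprotein with a near-identical neighbour gene, read 293, 109 and 347 (1.54), and Lrg1 had a difference of 1.04. Saa3 went the other way, with 1444 at 45 min, 857 at 60 min and a difference of -0.74. Among 22 interleukin genes, the gp130 cytokine Il11 was higher at dim levels (18.7 and 96.6, a difference of 1.70) and the interleukin 18 antagonist Il18bp was lower (136 and 55.3, -1.10).

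Markers of macrophages had a median near 0 at day 1, beside the higher injury genes. Of 27 macrophage genes, 1 (3.70%) was higher and 16 lay below 0, with a median of -0.01. The exception was Cd14, the co-receptor for endotoxin that tubule cells can also make, at 1.07. Adgre1 (F4/80) read 259 at 45 min and 221 at 60 min, Csf1r read 2837 and 1965, and Cd68 read 452 and 560. Neutrophil genes had a median of 0.08 over 9 kept, which turned to -0.20 with no filter and came to 0.46 with the filter at the 60th percentile, with S100a8 at 565 and 774 and S100a9 at 373 and 523, and Cd3e, Cd3g and Cd79a were below the filter. Interferon-stimulated genes had a median of 0.23 with 21 of 27 above 0, complement genes a median of -0.13 over 17, and MHC class II and dendritic genes a median of 0.24 over 12, of which Batf3 (1.05) was higher. In the adhesion list, Vcam1 and the selectin ligand Selplg (1.15) were higher among 12.

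Genes of the phases of cell division had unlike medians. DNA replication genes lay above 0 in 30 of 31 cases, with a median of 0.48, and 2 (6.45%) were higher and none lower. Mcm6, a subunit of the replicative helicase, read 85.9 at 0 min, 799 at 45 min and 1706 at 60 min (1.08), and Dscc1, which helps to load the sliding clamp, read 8.59, 93.7 and 218 (1.09). The chromatin regulator Uhrf1 (0.99) and the helicase subunit Mcm5 (0.96) came next. Mitosis genes had a median of 0.02 with 16 of 25 above 0 and none past 2-fold. Against the unclamped kidney of day 1, the median of the mitosis genes was 2.06 at 45 min and 2.02 at 60 min, and that of the replication genes was 1.38 and 1.87.

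Matrix genes had a median of 0.04 over 29, of which 2 (6.90%) were higher and none lower. They were Tagln, an actin-binding protein of smooth muscle and myofibroblasts, which read 592, 1453 and 3191 (1.13), and the matrix glycoprotein Tnc (1.00). The collagen genes Col1a1 (1209 at 45 min, 1326 at 60 min, 0.13) and Col3a1 (11604 and 10405, -0.16) were near each other on the 2 arrays. Fibroblast and pericyte genes had a median of -0.25 over 11, of which Dpt (567 and 268, -1.04) was lower, and the fibroblast proteoglycans Dcn (-0.94) and Lum (-0.89) lay just inside 2-fold. Of genes for TGF-beta and BMP signalling, the activin chain Inhbb (1.18) and the activin-binding protein Fst (1.01) were higher among 26. Of proteases and their inhibitors, Adamts1 (1.04) and Plaur were higher among 25.

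Most transport genes of the nephron lay below 0, by less than 2-fold, in each of the tubule segments listed. Proximal tubule transporters lay below 0 in 42 of 47 cases, with a median of -0.36; 3 (6.38%) were lower, against 0.982% of all genes, and none higher. The 3 were organic anion carriers of 1 family. Slc22a7 read 2079 at 0 min, 2981 at 45 min and 1116 at 60 min (-1.40), Slc22a13 read 1730, 1534 and 669 (-1.18) and Slc22a19 read 2858, 3667 and 1756 (-1.06). The phosphate carrier Slc34a1 read 18632, 17830 and 13046, a difference of -0.45. Slc22a7 and Slc22a19 were higher at 45 min than in the unclamped kidney of day 1. Their 60 min level thus lay nearer to that of this unclamped kidney than to that of 45 min. For Slc22a7 the 2 unclamped kidneys themselves lay far apart, at 2079 at day 1 and 8196 at day 3.

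Genes for endocytosis and the brush border had a median of -0.32, with 16 of 19 below 0, and the membrane protease Mep1b (3519 at 45 min, 1433 at 60 min, -1.29) was lower. In the thick ascending limb list 16 of 18 lay below 0, with a median of -0.39, and 2 were lower. Egf, whose precursor is made in the distal nephron, read 19971 at 0 min, 17862 at 45 min and 6409 at 60 min (-1.48), and Tmem207 read 996, 798 and 317 (-1.29). For both, the 0 and 45 min arrays were near each other and the 60 min array was far below. Umod, the most abundant protein of normal urine, made by the same segment, read 35476, 31404 and 28950, a difference of -0.12.

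The list of distal convoluted tubule and connecting tubule genes had the largest share of lower genes, 3 of 18 (16.7%), against 0.982% of all genes. In it 16 of 18 lay below 0, with a median of -0.34. Pvalb (parvalbumin), a calcium-binding protein of the early distal convoluted tubule, read 2042, 1568 and 374, a difference of -2.02. Calb1, a calcium-binding protein of the late distal convoluted tubule and the connecting tubule, read 13041, 9252 and 3788 (-1.28). The sodium-calcium exchanger Slc8a1 read 1623, 1099 and 534 (-1.02). All 3 handle or bind calcium and followed clamp time. Collecting duct genes had a median of -0.19 with 21 of 29 below 0 and none past 2-fold, and podocyte and endothelial genes each had a median of -0.11.

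**Figure D3:**
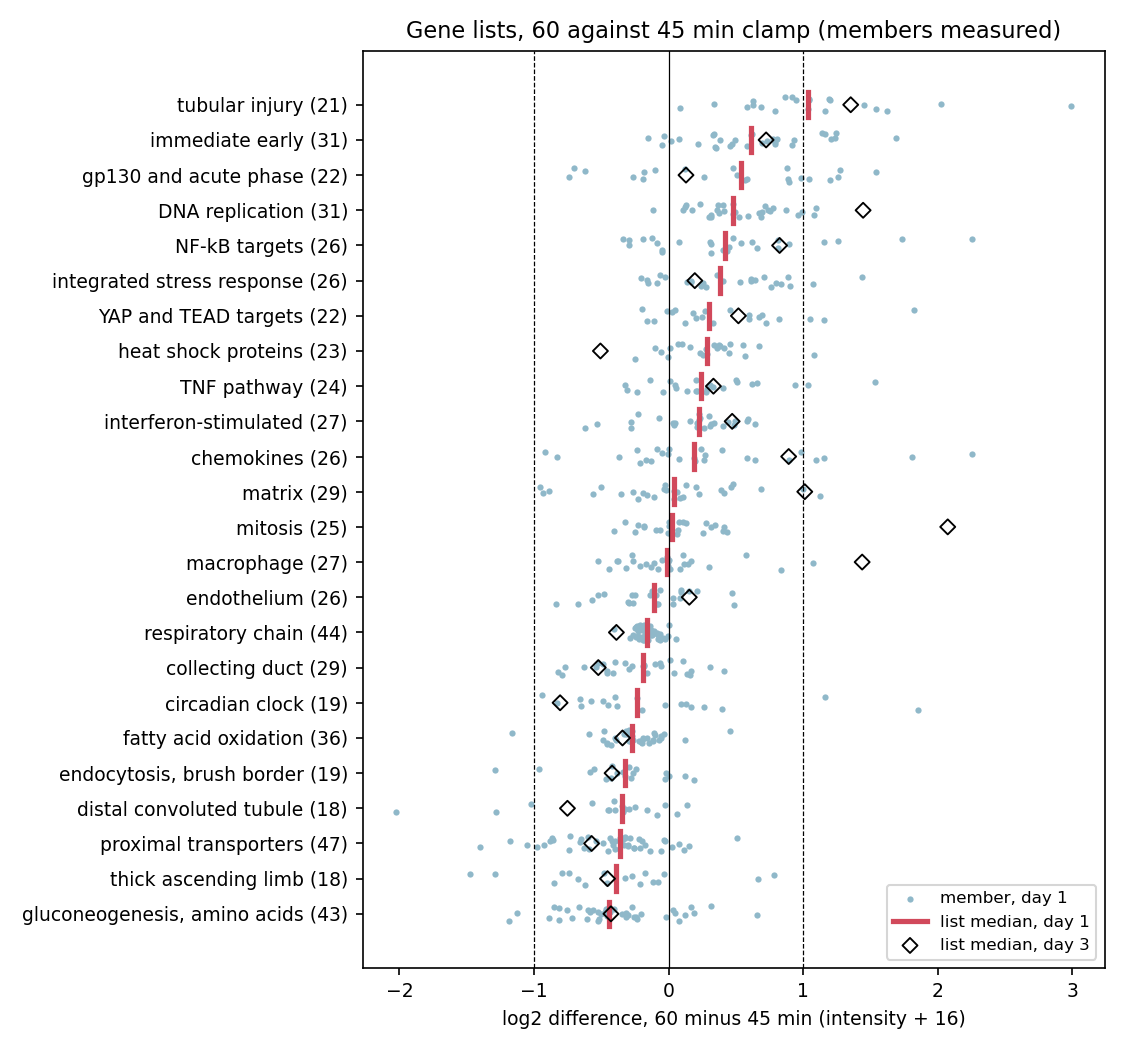
Log2 difference of 60 minus 45 min at day 1 for the members kept of 24 gene lists (1 light blue point a gene), with the list median at day 1 (red bar) and at day 3 (open diamond), and dashed lines at 2-fold. At day 1, among the lists drawn, tubular injury has the highest median (1.04) and gluconeogenesis and amino acids the lowest (-0.44). Of lists not drawn, red cell genes have a median of -0.68 (4 genes). The Sprr family, also not drawn, has 2.05 over the 2 genes kept of 9 on the array, and 0.055 with no filter. Mitosis (0.02) and macrophage (-0.01) lie near 0 at day 1 but at 2.07 and 1.44 at day 3.

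Most metabolic genes of the tubule also lay below 0. Genes of gluconeogenesis and amino acid breakdown had a median of -0.44 with 35 of 43 below 0; 2 (4.65%) were lower and none higher. They were Aadat, an aminotransferase of lysine and tryptophan breakdown (5305 at 45 min, 2325 at 60 min, -1.18), and Uroc1, an enzyme of histidine breakdown (746 and 333, -1.13). Fatty acid oxidation genes lay below 0 in 34 of 36 cases, with a median of -0.27, and 1 (2.78%) was lower, the peroxisomal oxidase Acox2 (1649 at 0 min, 3596 at 45 min, 1599.5 at 60 min, -1.16). Respiratory chain genes lay below 0 in 42 of 44 cases, with a median of -0.16 and none past 2-fold. Glycolysis genes had a median of 0.05 and hypoxia-inducible genes a median of 0.07.

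Stress programmes differed among themselves. Integrated stress response genes, which ATF4 drives when amino acids are short or the reticulum is stressed, had a median of 0.38 with 20 of 26 above 0, and 2 (7.69%) were higher. Asns, which makes asparagine, read 588 at 0 min, 419 at 45 min and 1163 at 60 min (1.44), and the pseudokinase Trib3 read 126, 83.3 and 193 (1.08). Atf4 itself read 3099, 1805 and 3379, a difference of 0.90, and so shared the low 45 min array. Heat shock proteins had a median of 0.28 with 19 of 23 above 0, and the small chaperone Hspb1 (2390 and 5057, 1.08) was higher. Chaperones of the endoplasmic reticulum had a median of 0.03, and NRF2 and glutathione genes a median of 0.13, with none past 2-fold in either list. Of genes for drug and steroid metabolism, the reductase Akr1b8 (324 and 956, 1.51) was higher and the progesterone-degrading Akr1c18 (3921 and 1395, -1.48) was lower. Akr1c18 read 262 in the unclamped kidney of day 1 and between 3300 and 5296 on the day 3 arrays, so its 0 min array at day 1 was the one far from the rest.

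Clock genes had a median of -0.24 over 19, of which 2 (10.5%) were higher. Nfil3, a repressor of the D-box, read 301, 89.4 and 365 (1.85), and Npas2, a partner of BMAL1, read 106, 39.5 and 108 (1.16). At day 1 both were lowest at 45 min, with the 0 and 60 min arrays near each other. No member was lower by 2-fold and 12 of 19 lay below 0, among them Per3, which read 471, 911 and 467 (-0.94). No promoter of Nfil3 or Npas2 held the D-box (TTATGTAA) or E-box (CACGTG) letters in the 250 bases. The labels do not give the hour at which kidneys were taken.

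Several of the highest genes read lower at 45 min than at 0 or 60 min of day 1. Azgp1, a secreted zinc-binding glycoprotein, had the largest difference of all genes, 4.54, and read 802 at 0 min, 18.0 at 45 min and 773 at 60 min, while all 3 day 3 arrays read between 11.6 and 14.97. For Azgp1 the 0 and 60 min arrays of day 1 were thus the ones far from the rest. The heavy chain of immunoglobulin A, Igha, read 13435, 369 and 2395 (2.65), the joining chain Jchain read 4182, 137 and 592 (2.00) and the light chain gene Igkv8-30 read 2936, 86.2 and 437 (2.15). These are products of plasma cells. The mucosal chemokine Ccl28, which draws such cells, read 8240, 590 and 2105 (1.81). Each of these 4 was highest in the unclamped kidney of day 1, and none was in order of clamp time.

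Immunoglobulin genes were gathered into a group of 8 after their values were seen. All 8 lay above 0 (Ighm, at 0.22, turned to -0.25 with its probe sets averaged), with a median of 1.23, and 5 were higher by 2-fold. Their summed intensity was 21670 at 0 min, 865 at 45 min and 3841 at 60 min at day 1, and 15275, 18452 and 2547 at day 3. At day 3 the 60 minus 45 min median was -1.79, with 6 of the 8 lower by 2-fold. At day 1 both clamped kidneys were thus below the unclamped one, with 45 min the lowest, and at day 3 the 60 min array was the lowest. Of the lymphocyte list, 7 genes were kept and 6 lay above 0, but the list shares Ighm and Jchain with this group, and its median of 0.22 is the value of Ighm and came to 1.11 with the filter at the 60th percentile. The markers Cd79a, Cd3e and Cd3g were below the filter, and the part of cell numbers in these values was not tested. Constant and variable segments of the family resemble each other, and a probe set may read several.

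**Figure D4:**
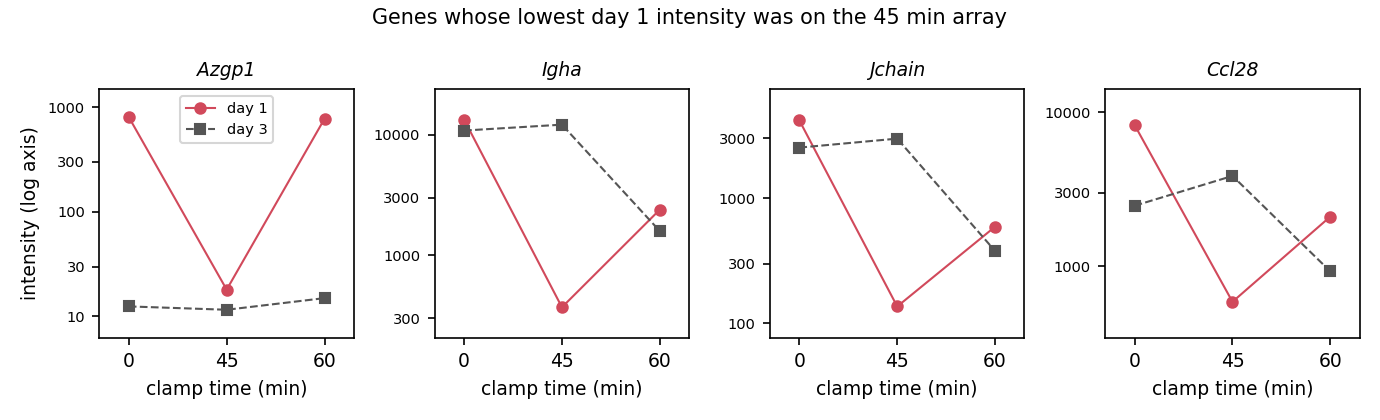
Intensity on each of the 6 arrays (log axis, each panel with its own range) by clamp time in min for Azgp1, Igha, Jchain and Ccl28, with day 1 as red circles and day 3 as grey squares, 1 array a point. At day 1 the 45 min array is the lowest of the 3 in every panel (Azgp1 18.0, Igha 369, Jchain 137, Ccl28 590), and at day 3 Igha, Jchain and Ccl28 are lowest at 60 min.

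The remaining genes among the 15 highest were dim. Prdm6 (94.0, 2.68 and 72.7), Prdm11 (108.5, 18.5 and 133), the pheromone receptor gene Vmn1r44 (105 at 0 and 79.6 at 60 min), Ust (31.0, 19.6 and 113) and Lbhd2 (43.3, 11.4 and 79.3) lay near the floor of the array at 45 min, with differences between 1.80 and 2.25. Some of the 15 lowest genes were dim as well. Chil1, a chitinase-like protein, read 63.1, 107 and 8.80, a difference of -2.31, and Sncb (-2.16), Tnfaip8l2 (-2.10), Vsig2 (-1.97), Ccr6 (-1.80), Zfp750 (-1.60) and Plxna4 (-1.54) all read under 25 at 60 min. The other 8 were brighter, among them Pvalb and Akr1c18. Others were the matrix protein Egfl6 (864, 598 and 194, -1.55), Sec24b (282, 412 and 102, -1.86) and the collectin Colec11 (147, 309 and 96.4, -1.53). The sodium channel subunit Scn4b (376, 386 and 124, -1.52) and Gpr162 (177, 179 and 52.97, -1.50) also belonged here. The organic anion carrier Slc22a29 (232, 1174 and 361, -1.66) completed the 8. Its unclamped kidneys lay far apart, at 232 at day 1 and 1041 at day 3.

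Genes past 2-fold were dimmer than genes overall. The median intensity on the brighter of the 2 arrays was 344 for the higher and 255 for the lower genes, against 623 for all genes kept. It reached 100 for 101 of 128 and for 100 of 125. Another probe set above the filter existed for 34 of the higher genes, and for 29 of these every other one had the same sign; for the lower genes this held for 19 of 22. Another probe set itself lay past 2-fold for 19 of the 34 higher and 6 of the 22 lower genes, and none did so in the opposite direction. They read the same RNA a second time and are no replicate of the kidney.

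The day 3 arrays repeat the contrast in other kidneys, with no array shared. Their log2 ratios of 3' to 5' actin were less alike than at day 1, at 1.03 on the 45 min and 0.49 on the 60 min array. Those of Gapdh were -0.33 and -0.37. What this did to the day 3 differences was not tested. At day 3, 758 genes (5.95%) were higher and 303 (2.38%) lower at 60 min. Of the genes higher at day 1, 42 were also higher at day 3, which is 32.8% of the day 1 and 5.54% of the day 3 genes, and 96 of 128 had the same sign. Of those lower at day 1, 33 were lower at day 3, or 26.4% and 10.9%, and 83 of 125 had the same sign. Over all 12735 genes, 57.6% lay above 0 at day 3, so the 2 signs were not equally common there. Pearson's r between the 2 differences was 0.31 over 12735 genes, which are not independent replicates and share the tissue and the array design.

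Genes higher on both days were led by Sprr2f (2.99 at day 1, 4.51 at day 3), Ccn1 (1.82 and 1.93), the little-described Mab21l3 (1.74 and 1.81), Fosl1 (1.69 and 1.70), Havcr1 (1.62 and 2.16), Rhbdf2 (1.54 and 2.76), Akr1b8 (1.51 and 1.67) and Krt20 (2.02 and 1.49). Of these Havcr1 and Akr1b8 read in order of clamp time on both days, as did Krt20, Sprr2f and Lcn2. Mab21l3 and Rhbdf2 were instead lowest at 45 min on both days. Mab21l3 read 119 at 0 min, 24.7 at 45 min and 120 at 60 min at day 1, and 47.7, 12.6 and 84.1 at day 3. Genes lower on both days were led by Pvalb (-2.02 and -3.21), Egf (-1.48 and -2.11), Slc22a7 (-1.40 and -3.25), C1qtnf3 (-1.31 and -1.86), Prdm16os (-1.40 and -1.31), the motor protein Myo5a (-1.30 and -1.61), Rnf24 (-1.30 and -1.46) and Tmem207 (-1.29 and -2.09). At day 1 Slc22a7, Myo5a and Rnf24 were highest at 45 min, and Rnf24 read 1350 at 0 min, 2728 at 45 min and 1099 at 60 min. At day 3 Egf read 23566 at 0 min, 23110 at 45 min and 5356 at 60 min. For Egf the 45 min kidney was thus near the unclamped one on both days.

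Some groups had other values at day 3. Mitosis genes went from a median of 0.02 at day 1 to 2.07 at day 3, with 25 of 25 higher at day 3, and macrophage genes from -0.01 to 1.44, with 26 of 27 higher. DNA replication genes had 0.48 and 1.44, matrix genes 0.04 and 1.01 and chemokines 0.19 and 0.89. Acute phase genes had the larger median at day 1 (0.54 against 0.13 at day 3), and Cxcl1, at 2.25 at day 1, had 0.38 at day 3, when it read 1723 at 45 min and 2255 at 60 min. Tubular injury markers had 1.04 and 1.35, and proximal transporters -0.36 and -0.57. Each day is 1 array a side, and the differences between days were not tested.

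**Figure D5:**
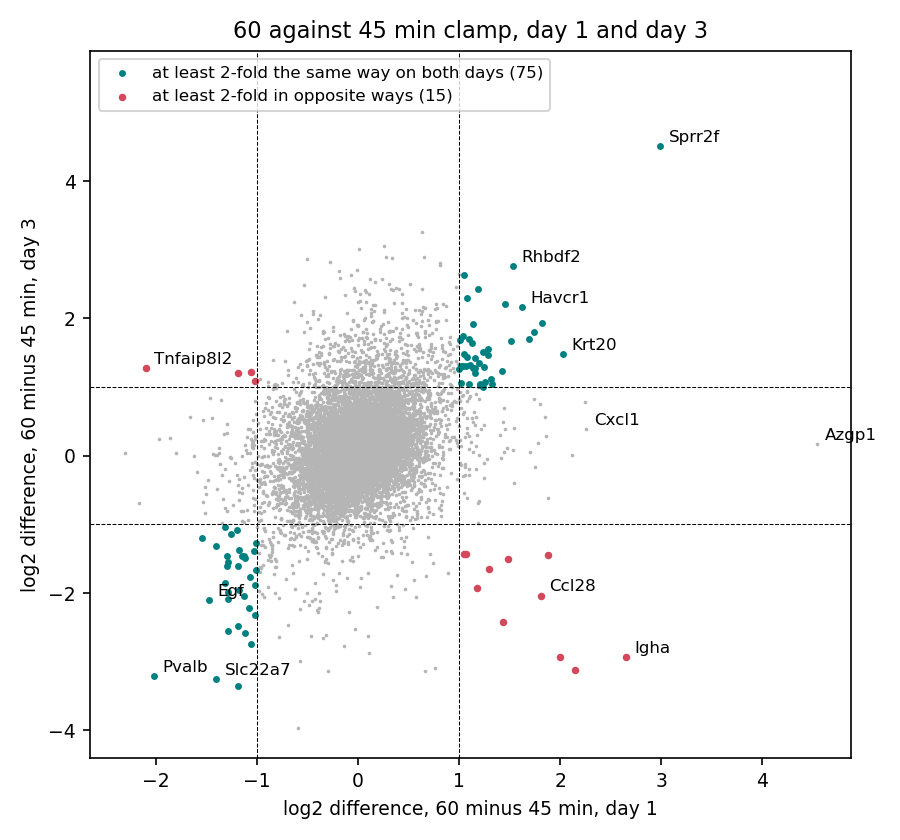
Log2 difference of 60 minus 45 min at day 3 (vertical) against the same at day 1 (horizontal), 1 point a gene, with dashed lines at 2-fold. The 75 genes past 2-fold in the same direction on both days are teal and the 15 past it in opposite directions are red, with Sprr2f (2.99 and 4.51) at the upper right and Igha (2.65 and -2.93) among the red ones.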

How the data were processed

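Total mouse kidney RNA was labelled with a 3' IVT kit and hybridised to 6 Affymetrix arrays, per the labels' protocols. The authors deposited linear intensities, 1 for each probe set of an array, from Affymetrix Expression Console as the submitters' processing notes say. The tool's version and its summarising algorithm are not given in the sources used. The mean after trimming 2% at each end was 500.003 on all arrays, so intensities were scaled to 1 target, which fixes each array's mean.

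The platform annotation gave 1 symbol to 34945 of 45101 probe sets, several to 932 and none to 9160, the other 64 being controls. Probe sets with 1 symbol were used, of which 34741 matched a gene identifier. Each of 18193 genes took its probe set of highest mean log2(intensity + 16), and 12735 at or above the 40th percentile (6.01) were kept. The pseudocount of 16 makes differences of dim genes smaller than their ratio. The report took the 60 min minus the 45 min value and called 2-fold. No replicates exist, so no test was run and the number of arrays limits precision.

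Genes named were the 15 highest and 15 lowest; up to 6 members past 2-fold of each of 54 lists, or the largest 1 or 2 where none was; Tnf, its receptors and injury and segment markers; 8 a direction on both days; and 6 a direction opposite on the days. Symbols of predicted genes were passed over. Other genes, such as Nfkbia, Ccl2, Col1a1 or Saa3, and the immunoglobulin group were chosen after their values were seen. The comparison, the lists and their members were chosen with earlier results of these data known. The scripts were tested on simulated data. Alternatives were other scalings, pseudocounts, filters and probe set rules. Promoters came from RefSeq (GRCm38.p6). Python 3.11.15, pandas 2.3.3 and numpy 2.4.6 were used.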

Additional observations from a re-analysis of the deposited data

Results flagged for a closer look

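Of the genes kept, 15 lay past 2-fold in opposite directions at day 1 and day 3 (60 minus 45 min), and each rests on 1 array a side on each day; the differences between days were not tested. Higher at day 1 and lower at day 3 were Igha (2.65 and -2.93), Igkv8-30 (2.15 and -3.13), Jchain (2.00 and -2.93), Vmn1r44 (1.88 and -1.45), Ccl28 (1.81 and -2.04), Adam4 (1.49 and -1.51), Tc2n (1.44 and -2.42), Igkv9-120 (1.29 and -1.66), Igk (1.18 and -1.92), Ttpa (1.07 and -1.43) and Cyp4a12a (1.04 and -1.42). Lower at day 1 and higher at day 3 were Penk (-1.02 and 1.09), Ano1 (-1.06 and 1.22), Lysmd2 (-1.19 and 1.21) and Tnfaip8l2 (-2.10 and 1.28). Of the first 11, 5 are immunoglobulin genes or the joining chain, and Cyp4a12a, a fatty acid hydroxylase with close relatives, read 7070 at 0 min, 1855 at 45 min and 3838 at 60 min at day 1.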

How the results depend on the processing

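No paired analysis was possible because each group held 1 array, and for the same reason no replicate could be left out. Under 8 alternatives, which gave 1072 values for the 144 named genes, no gene past 2-fold changed sign. Short of 2-fold, Ighm (-0.25), Aldoc (0.36) and Kynu (0.059) changed sign with probe sets averaged. Medians under 0.1 in size were not read for direction, and those of the claudin, neutrophil and EGF lists changed sign. The counts moved most with brightness. Higher genes numbered 63 with a pseudocount of 64, 485 with no filter and 68 at the 60th percentile. Lower genes numbered 188 with a pseudocount of 1, 56 with 64, 445 with no filter and 64 at the 60th percentile. Genes higher on both days numbered 23 with a pseudocount of 64, 82 with no filter and 25 at the 60th percentile, and lower on both days 66 with no filter. Quantile normalization gave 135 higher and 104 lower genes and median centring 121 and 131. At 2-fold under every alternative that measured them stayed 53 higher and 44 lower genes. List medians with no filter were 0.055 for the Sprr family, -0.20 for neutrophil, 0.10 for lymphocyte, 0.069 for smooth muscle and 0.21 for iron and heme genes. At the 60th percentile they were -0.29 for complement, 0.46 for neutrophil, 1.11 for lymphocyte, -0.020 for fibroblast and pericyte, -0.35 for fat and adrenal, 0.49 for smooth muscle, 0.26 for necroptosis and -0.17 for sex-linked genes. With the brighter array at 100 or more, interleukins had 0.073, neutrophil 0.44, lymphocyte 1.11 and sex-linked genes -0.17. With a gene's probe sets averaged, lymphocyte had 0.079, proteases and serpins 0.095, red cell -0.44 and fat and adrenal genes -0.48. Why these values moved was not tested.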

Other observations

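Insulin-like growth factor genes lay below 0 in 16 of 17 cases, with a median of -0.22. Igfbp1, a liver-type binding protein for these factors, read 363 at 0 min, 1318 at 45 min and 570 at 60 min at day 1 (-1.19), and 201, 1493 and 132 at day 3 (-3.35), so it was highest at 45 min on both days. Junction genes had a median of -0.03 over 25, and the claudin Cldn4, which lines the distal nephron, read 590, 800 and 1711 (1.08). Among cytochrome P450 genes 15 of 20 lay below 0, with a median of -0.22. Cyp27b1, which activates vitamin D, read 52.97, 76.6 and 177 (1.06), and Cyp26b1, which clears retinoic acid, read 134, 221 and 90.8 (-1.15). The notch target Hey1 read 98.6, 13.8 and 47.7 (1.10), with the 45 min array the lowest. Ndufs5, a subunit of complex I chosen here after its values were seen, read 5864, 1033 and 3503 at day 1, a difference of 1.75, against 938, 762 and 676 at day 3, and is not among the 44 respiratory chain genes listed, whose median was -0.16.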
